A study of Mus musculus with 300 samples.

Results

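Bcl6b, Timp4, Fam107a, Map3k6, Tent5b, Angptl7, Adamts4, Ctxn3, Cldn5 and Mycn are 10 of the 18193 genes that the array names, chosen by their measured differences between treated and vehicle arrays, since several peroxisome proliferator-activated receptor (PPAR) agonists moved them in mouse heart or skeletal muscle. All 10 were measured, and each is given by the probe set with the highest mean level over the arrays of all 4 tissues. The differences between treated and vehicle hearts, and between treated and vehicle muscles, chose these genes, so they stand here as descriptions without a test. Vehicle hearts and muscles are the other side of those differences, so their differences between days are descriptions too. Liver, kidney and the deviations of single animals from their group were not used for the choice and were tested. Livers and kidneys came from the same animals as the hearts and muscles, so their tests are not independent of the choice.

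The study gave mice WY14643, GW501516 or rosiglitazone by mouth at 10 mg/kg for 4, 8 or 15 days and set them against vehicle. The sample labels name WY14643 where the design text of the series has WY16453, and the labels are followed. WY14643 is an agonist of PPAR-alpha, GW501516 of PPAR-delta and rosiglitazone of PPAR-gamma. Each tissue had 5 arrays for a compound on a day, 15 for a compound in all, and 10 vehicle arrays on a day, 30 in all. Liver, heart, kidney and skeletal muscle came from the same 75 animals, 1 array for each tissue of an animal; strain, sex, age and hour of collection are not given in the sources used here, and the labels name no muscle.

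PPARs are nuclear receptors that bind DNA with the retinoid X receptor and switch genes of fatty acid use and storage when a lipid or drug occupies them. Among the 10 genes are products of the vessel wall and the matrix around it: a tight junction protein of endothelium, a matrix protease, an inhibitor of matrix proteases and a secreted angiopoietin-like protein. The other products act inside cells, as transcription factors, a stress kinase, a poly(A) polymerase and an actin-binding protein, and one is a small membrane protein.

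Timp4, Fam107a, Map3k6 and Tent5b were called higher with each of the compounds in heart, and the 250 bases before a start site of each are shown for that reason. Bases in capitals are matches to ACANNNTGT, the core of a glucocorticoid receptor site, searched because Fkbp5, a gene that glucocorticoids induce, was among the genes most like Map3k6 and Tent5b. Sequences are from RefSeq, build GRCm38.p6, written 5′ to 3′ on the strand of the gene. Map3k6 is taken from chr4:133240568-133240817 on the + strand, before a start inside the annotated gene at chr4:133237979-133252929. Fam107a is taken from chr14:8309780-8310029 on the - strand, before an internal start of the gene at chr14:8296270-8317607. Timp4 is taken from chr6:115252206-115252455 on the - strand, before the gene at chr6:115244444-115252205. Tent5b is taken from chr4:133479883-133480132 on the + strand, before the gene at chr4:133480133-133487940.

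Map3k6: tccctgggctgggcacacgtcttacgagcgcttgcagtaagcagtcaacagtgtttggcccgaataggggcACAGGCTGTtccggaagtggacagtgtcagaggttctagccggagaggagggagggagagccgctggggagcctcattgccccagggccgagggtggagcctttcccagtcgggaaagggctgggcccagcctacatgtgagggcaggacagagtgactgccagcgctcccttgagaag

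Fam107a: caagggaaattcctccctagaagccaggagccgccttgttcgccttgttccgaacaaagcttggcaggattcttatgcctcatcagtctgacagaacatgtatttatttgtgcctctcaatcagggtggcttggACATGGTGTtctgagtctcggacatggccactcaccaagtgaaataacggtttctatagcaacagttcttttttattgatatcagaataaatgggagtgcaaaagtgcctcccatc

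Timp4: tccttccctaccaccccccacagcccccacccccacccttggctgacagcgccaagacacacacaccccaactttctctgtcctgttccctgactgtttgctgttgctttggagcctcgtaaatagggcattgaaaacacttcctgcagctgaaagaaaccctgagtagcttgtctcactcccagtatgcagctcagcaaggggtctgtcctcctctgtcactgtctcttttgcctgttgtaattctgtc

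Tent5b: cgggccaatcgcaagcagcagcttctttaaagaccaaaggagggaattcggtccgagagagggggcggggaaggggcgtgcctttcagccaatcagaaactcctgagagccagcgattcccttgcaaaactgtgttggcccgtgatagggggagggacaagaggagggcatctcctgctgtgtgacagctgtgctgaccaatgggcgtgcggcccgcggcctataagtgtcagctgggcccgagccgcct

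Of 7 members with a window, 2 held a match: Map3k6 held ACAGGCTGT and Fam107a held ACATGGTGT. Fam107a has 3 windows, of which the one before the annotated gene start held no match; the window with a match was the one shown, and the remaining one overlaps it, 2 bases away, and holds the same letters. ACANNNTGT, read on both strands, was in 5.84% of 32851 mouse promoter windows. That share is per window, while the count above is per member, and the share of genes with a match in any window was not computed. The E-box CACGTG, the D-box TTATGTAA, the PPAR response element (a direct repeat of AGGTCA with 1 base between) and AGGTCA alone had no match in the 9 windows of these genes, against 6.02%, 0.819%, 0.0335% and 14% of all windows on both strands; AGGTCA is contained in the PPAR element. A match is a string of letters and no test of binding. Windows for Bcl6b, Adamts4 and Ctxn3 are not used here.

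The deposited log2 values had an array median of 7.27 to 7.44 in heart, 4.98 to 5.13 in muscle, 5.05 to 5.38 in kidney and 6.12 to 6.26 in liver, so levels are not compared between tissues, nor between genes. Defining genes of each muscle tissue were bright: 9 of 9 cardiomyocyte markers averaged 12.58 to 14.16 in single hearts, and 10 of 10 skeletal muscle markers averaged 12.84 to 13.49 in single muscles. Several treated arrays stood more than 1 log2 unit above every vehicle array in markers of another cell type. These were the hearts of GW501516 day 15 replicate 1 and rosiglitazone day 4 replicate 1 (8 of 10 adipocyte markers, 11.80 and 12.5, against a vehicle highest of 9.66) and of WY14643 day 4 replicate 3 (7 of 7 kidney tubule markers, 8.98 against 7.45). In muscle they were WY14643 day 4 replicate 3 (9 of 10 hepatocyte markers, 11.55 against 9.85) and GW501516 day 4 replicate 5 (8 of 9 neutrophil markers, 6.42 against 3.96). The animal labelled WY14643 day 4 replicate 2 stood apart in both tissues, with neutrophil markers at 9.47 in heart, against a vehicle highest of 6.76, and at 5.96 in muscle, against 3.96. A rule set against the highest vehicle array cannot single out a vehicle array. Vehicle arrays held such markers too: hepatocyte markers averaged 6.4 to 11.72 in single vehicle hearts (median 9.3). Kidney tubule markers averaged 2.39 to 7.02 in single vehicle muscles (median 2.79).

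In rosiglitazone hearts of day 8 none of the 10 genes overlapped with vehicle: 6 were higher in every treated heart than in any vehicle heart and 4 were lower in every treated heart. Over all genes, 3.14% had ranges that did not overlap in that comparison. The same count was 4 with GW501516 on day 8 (Bcl6b, Map3k6, Tent5b and Cldn5), where 1.43% of genes had such ranges, and 3 with WY14643 (Bcl6b, Adamts4 and Cldn5), where 0.671% had them. On day 4 no member was free of overlap in heart or muscle in 60 comparisons, on day 8 it was 32 of 60 and on day 15 it was 5 of 60. With WY14643, GW501516 and rosiglitazone, 0.253%, 0.302% and 0.165% of all genes had no overlap in heart on day 4 and 0.33%, 0.132% and 0.044% in muscle, and on day 15 it was 0.264%, 0.511% and 0.726% in heart and 0.055%, 0.143% and 0.33% in muscle. These contrasts chose the genes, and nothing is read from the counts.

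Averaged over the days, the 10 genes differed from vehicle in heart by a median of 0.34 with WY14643, 0.56 with GW501516 and 0.82 with rosiglitazone on the log2 scale, against medians of 0.006, -0.009 and -0.02 over all genes. With each compound 6 of 10 were higher and the rest lower, so the median reflects the make-up of the list and is no common rise. The choice fixed these calls, which are no test: in limma, with p adjusted over all genes and called under 0.05, 5 of 10 were called with WY14643, 9 of 10 with GW501516 and 10 of 10 with rosiglitazone, where 1.44%, 4.17% and 7.51% of all genes were called, and nothing is read from the counts. WY14643 called Bcl6b, Timp4, Fam107a, Map3k6 and Tent5b, and GW501516 called all but Mycn. The counts without day 8 were 2, 2 and 5, from fewer arrays, and the share of all genes called there was not computed. The 3 comparisons of a tissue share their vehicle arrays, so a gene's changes with the compounds are not independent of each other. In whole tissue, fewer cells of a type and less RNA in each cell cannot be told apart, and the number of arrays limits the precision of every value.

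**Figure D1:**
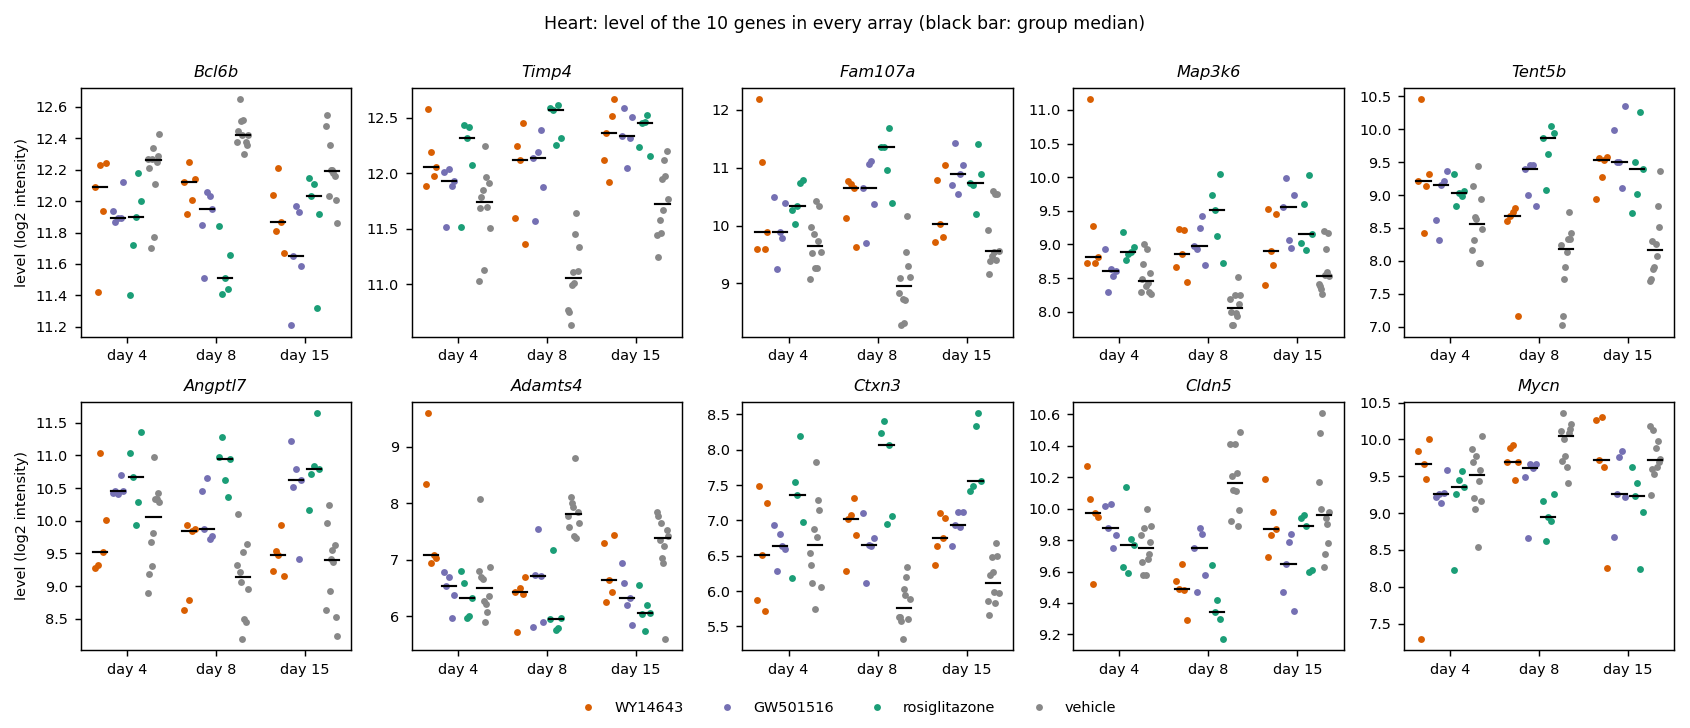
Log2 level of each of the 10 genes in single hearts, by compound and day, with vehicle last; points are arrays and black bars are group medians. Rosiglitazone hearts of day 8 lie apart from vehicle hearts of day 8 for all 10 genes, with Timp4 at 12.26 to 12.62 against 10.63 to 11.64.

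Timp4, an inhibitor of matrix metalloproteinases that is abundant in heart, was higher with each compound. Its lowest, median and highest heart levels were 11.36, 12.12 and 12.67 with WY14643, 11.52, 12.05 and 12.59 with GW501516, 11.52, 12.42 and 12.62 with rosiglitazone, and 10.63, 11.54 and 12.25 with vehicle. The ranges overlap over all days, yet 15, 14 and 14 of 15 treated hearts were above the vehicle mean of their day. The change was 0.64, 0.59 and 0.83 with WY14643, GW501516 and rosiglitazone (SE 0.097), and a second probe set of Timp4 gave 0.73, 0.63 and 0.94.

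Adamts4, a protease that cuts the proteoglycans aggrecan and versican, was lower with GW501516 and rosiglitazone. Heart levels (lowest, median, highest) were 5.73, 6.69 and 9.60 with WY14643, 5.81, 6.54 and 7.55 with GW501516, 5.75, 6.04 and 7.17 with rosiglitazone, and 5.6, 7.41 and 8.80 with vehicle. Changes were -0.24, -0.76 and -1.03 (SE 0.179), and 8, 13 and 14 of 15 treated hearts were below the vehicle mean of their day. By day, the WY14643 change of Adamts4 was 1.21 ± 0.31 on day 4, -1.5 ± 0.31 on day 8 and -0.43 ± 0.31 on day 15. The heart labelled WY14643 day 4 replicate 2 was at 9.60, against 6.94 to 8.34 in the other 4 hearts of its group, and without it the day 4 change was 0.76 and the mean change -0.39. The second probe set of Adamts4 gave -0.21, -0.61 and -0.82 over the days.

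Angptl7, a secreted angiopoietin-like protein, was higher with GW501516 and rosiglitazone in heart. Its levels were 8.64, 9.52 and 11.03 with WY14643, 9.41, 10.46 and 11.22 with GW501516, 9.93, 10.79 and 11.65 with rosiglitazone, and 8.19, 9.40 and 10.97 with vehicle. All 15 GW501516 hearts and all 15 rosiglitazone hearts were above the vehicle mean of their day, against 8 of 15 WY14643 hearts. The changes were 0.15, 0.94 and 1.35 (SE 0.176). Angptl7 moved in single hearts with the mean of 7 of 7 tendon markers (r = 0.55 over 75 hearts, deviations from group means). That mean was 6.31 to 7.93 with WY14643, 6.58 to 8.08 with GW501516, 6.43 to 8.38 with rosiglitazone and 6.57 to 7.86 with vehicle. The part of tendon cells in the change was not tested.

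Cldn5, the main claudin of endothelial tight junctions, was lower by small amounts. Heart levels were 9.29, 9.83 and 10.27 with WY14643, 9.35, 9.79 and 10.03 with GW501516, 9.17, 9.63 and 10.14 with rosiglitazone, and 9.58, 9.93 and 10.61 with vehicle. The ranges overlap widely over all days, and the changes were -0.20, -0.24 and -0.33 (SE 0.066). On day 8 they were -0.69, -0.47 and -0.81 (SE 0.114), while on day 4 Cldn5 was 0.19, 0.14 and 0.03 above vehicle. The mean of 22 of 22 other endothelial genes was 10.55 to 11.03, 10.79 to 11.05 and 10.79 to 10.99 in the treated hearts, against 10.57 to 10.99 in vehicle hearts.

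Bcl6b, a zinc finger repressor related to BCL6, had heart levels of 11.42, 12.04 and 12.25 with WY14643, 11.21, 11.89 and 12.12 with GW501516, 11.32, 11.84 and 12.18 with rosiglitazone, and 11.70, 12.30 and 12.65 with vehicle. It was below the vehicle mean of the day in 12, 15 and 14 of 15 treated hearts. The changes were -0.27, -0.44 and -0.50 (SE 0.071), and the WY14643 call ended when any of 6 arrays was left out, with a change between -0.30 and -0.22.

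Mycn, a MYC family transcription factor, spanned 7.29, 9.69 and 10.30 in WY14643 hearts, 8.66, 9.27 and 9.84 in GW501516 hearts, 8.23, 9.23 and 9.62 in rosiglitazone hearts and 8.54, 9.72 and 10.36 in vehicle hearts. Its changes were -0.17, -0.36 and -0.63 (SE 0.154), and the treated and vehicle ranges overlap for every compound. The lowest WY14643 value of Mycn is the heart labelled day 4 replicate 2, with the other 4 of its group at 9.46 to 10.01, and without it the WY14643 change was -0.01. The other probe sets of Mycn differed from vehicle by -0.12 to 0.02 in heart, so the lower level rests on 1 of 3 probe sets.

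Map3k6 (ASK2), a kinase of the stress-activated MAP kinase cascade, had heart levels of 8.40, 8.86 and 11.16 with WY14643, 8.29, 8.95 and 9.99 with GW501516, 8.73, 9.12 and 10.05 with rosiglitazone, and 7.80, 8.38 and 9.20 with vehicle. The changes were 0.65, 0.62 and 0.82 (SE 0.131), with 14, 13 and 15 of 15 treated hearts above the vehicle mean of their day. The highest WY14643 heart is the animal labelled day 4 replicate 2, and without its array the WY14643 change was 0.50.

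Fam107a, an actin-associated protein that stress and glucocorticoids induce in brain, was higher with each compound. Its heart levels were 9.60, 10.13 and 12.18 with WY14643, 9.25, 10.55 and 11.43 with GW501516, 10.02, 10.74 and 11.68 with rosiglitazone, and 8.28, 9.5 and 10.60 with vehicle. The changes were 0.87, 0.98 and 1.28 (SE 0.174), with 11, 14 and 15 of 15 treated hearts above the vehicle mean. Without the heart labelled WY14643 day 4 replicate 2, at 12.18 the highest of its compound, the WY14643 change of Fam107a was 0.72. The other probe sets of Fam107a gave 0.88, 0.96 and 1.25, and 0.76, 0.61 and 0.78.

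Tent5b, a noncanonical poly(A) polymerase, had heart levels of 7.16, 9.14 and 10.46 with WY14643, 8.31, 9.36 and 10.36 with GW501516, 8.73, 9.32 and 10.26 with rosiglitazone, and 7.02, 8.28 and 9.44 with vehicle. The changes were 0.75, 1.01 and 1.1 (SE 0.156), and the WY14643 change of Tent5b was 0.66 without the heart labelled day 4 replicate 2, at 10.46 the highest of its compound. Ctxn3, a small membrane protein of the cortexin family, had 5.72, 6.79 and 7.48 with WY14643, 6.11, 6.75 and 7.12 with GW501516, 6.18, 7.54 and 8.52 with rosiglitazone, and 5.32, 6.09 and 7.83 with vehicle. Its changes were 0.53, 0.53 and 1.40 (SE 0.152). Rosiglitazone kept Ctxn3 clear of vehicle on day 15 too, where it was the 1 member without overlap and 0.726% of all genes had none. Ctxn3 and Adamts4 were under the 40th percentile of mean level in heart.

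The muscle contrasts chose the genes as well, and their calls are given as a description. Bcl6b, Timp4, Fam107a, Map3k6 and Mycn were called with each compound, and Adamts4 with GW501516 and rosiglitazone, which made 5, 6 and 6 of 10 where 0.104%, 0.857% and 1.65% of all genes were called. Tent5b, Angptl7, Ctxn3 and Cldn5 were called with none of them in muscle, with changes between -0.31 and 0.45. Without day 8 the counts were 0, 1 and 1, and the share of all genes called there was not computed. On day 8, 5, 4 and 6 of 10 had no overlap with vehicle in muscle with WY14643, GW501516 and rosiglitazone, where 0.198%, 0.522% and 0.89% of all genes had none. Nothing is read from these counts.

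**Figure D2:**
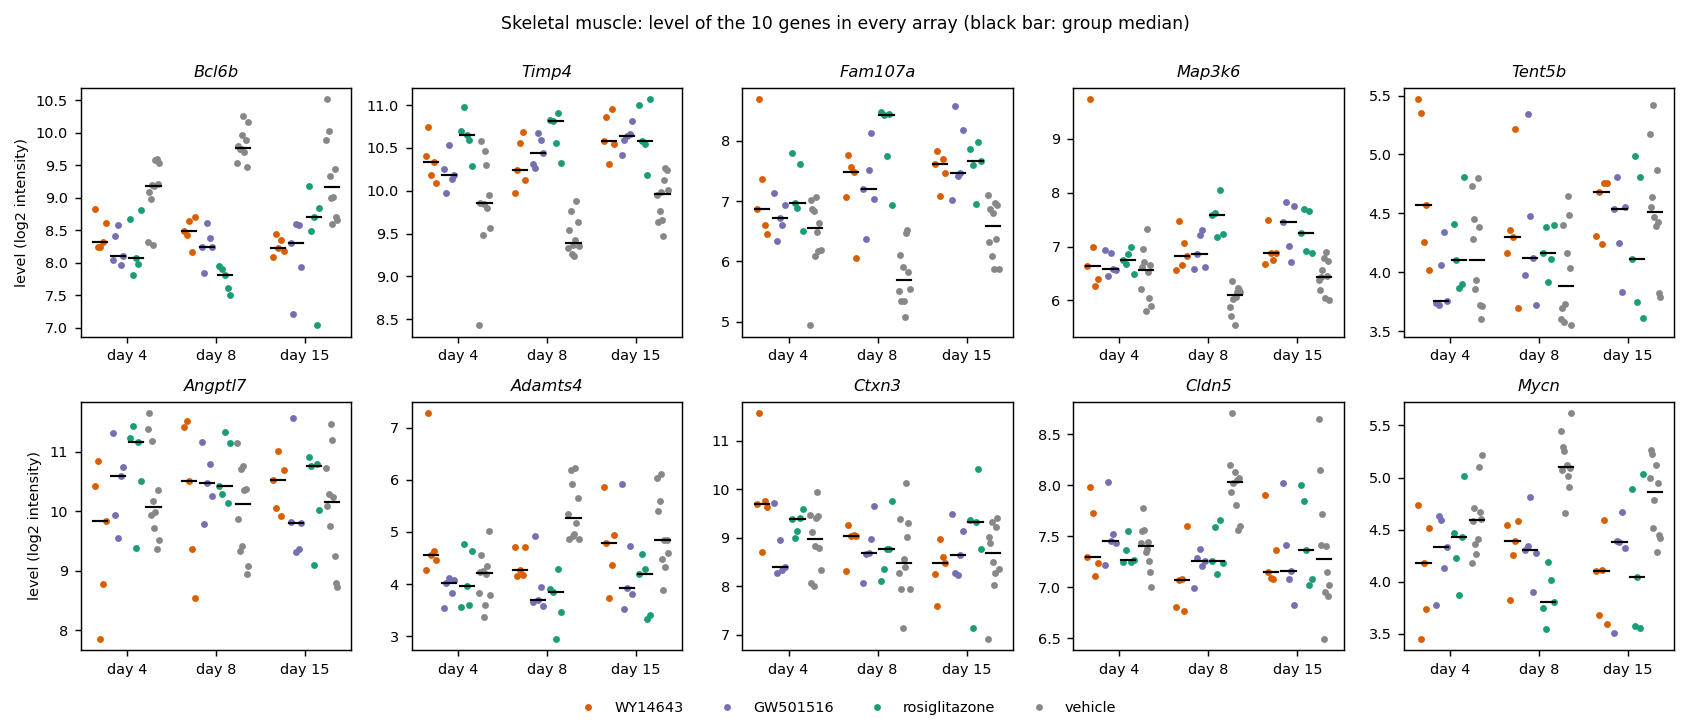
Log2 level of each of the 10 genes in single skeletal muscles, by compound and day, with vehicle last; points are arrays and black bars are group medians. On day 8 Bcl6b lies below and Timp4 above every vehicle array with all 3 compounds, while Tent5b, Angptl7 and Ctxn3 overlap with vehicle throughout.

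Bcl6b showed the largest difference of the 10 in muscle with GW501516 and was below the vehicle mean of its day in 45 of 45 treated muscles. Its levels were 8.09, 8.35 and 8.83 with WY14643, 7.22, 8.24 and 8.62 with GW501516, 7.04, 7.99 and 9.19 with rosiglitazone, and 8.28, 9.5 and 10.52 with vehicle. The changes were -1.02, -1.21 and -1.26 (SE 0.138). On day 8 the treated muscles reached 8.71, 8.62 and 7.95 at most, against 9.48 at least in vehicle, and the rosiglitazone change was -2.07 ± 0.239.

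Timp4 was above the vehicle mean of its day in 45 of 45 treated muscles. Its levels were 9.97, 10.40 and 10.95 with WY14643, 9.97, 10.44 and 10.82 with GW501516, 10.18, 10.65 and 11.07 with rosiglitazone, and 8.43, 9.76 and 10.58 with vehicle. The changes were 0.70, 0.69 and 0.93 (SE 0.101), and the second probe set gave 0.75, 0.72 and 0.93. On day 15 only Bcl6b and Timp4 of the 10 had no overlap with vehicle in muscle, with WY14643 (0.055% of all genes) and with GW501516 (0.143%).

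Fam107a had muscle levels of 6.05, 7.47 and 8.69 with WY14643, 6.33, 7.13 and 8.58 with GW501516, 6.50, 7.67 and 8.47 with rosiglitazone, and 4.94, 6.26 and 7.10 with vehicle. The changes were 1.07, 1.01 and 1.35 (SE 0.176), and the other probe sets of Fam107a gave 1.0, 1.01 and 1.35, and 0.30, 0.11 and 0.27. Map3k6 had 6.27, 6.82 and 9.74 with WY14643, 6.46, 6.89 and 7.82 with GW501516, 6.49, 7.17 and 8.05 with rosiglitazone, and 5.54, 6.22 and 7.33 with vehicle. Its changes were 0.70, 0.67 and 0.87 (SE 0.154), and the WY14643 call of Map3k6 ended when any of 4 arrays was left out, with values between 0.49 and 0.78.

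Mycn had muscle levels of 3.45, 4.18 and 4.74 with WY14643, 3.51, 4.33 and 4.81 with GW501516, 3.55, 4.05 and 5.03 with rosiglitazone, and 4.18, 4.93 and 5.62 with vehicle, dim values whose ranges overlap. The changes were -0.70, -0.56 and -0.69 (SE 0.122), while the other probe sets of Mycn gave -0.05 to 0.14. Among these, a probe set brighter in muscle than the probe set used (mean 5.69 against 4.46) gave -0.05, -0.02 and -0.05. Adamts4 had 3.74, 4.56 and 7.28 with WY14643, 3.52, 3.92 and 5.92 with GW501516, 2.95, 3.91 and 4.77 with rosiglitazone, and 3.37, 4.85 and 6.23 with vehicle. Its changes were -0.12, -0.76 and -0.93 (SE 0.205), and the GW501516 call of Adamts4 ended when any of 47 of the 75 arrays was left out. Tent5b, Adamts4 and Mycn were under the 40th percentile of mean level in muscle.

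**Figure D3:**
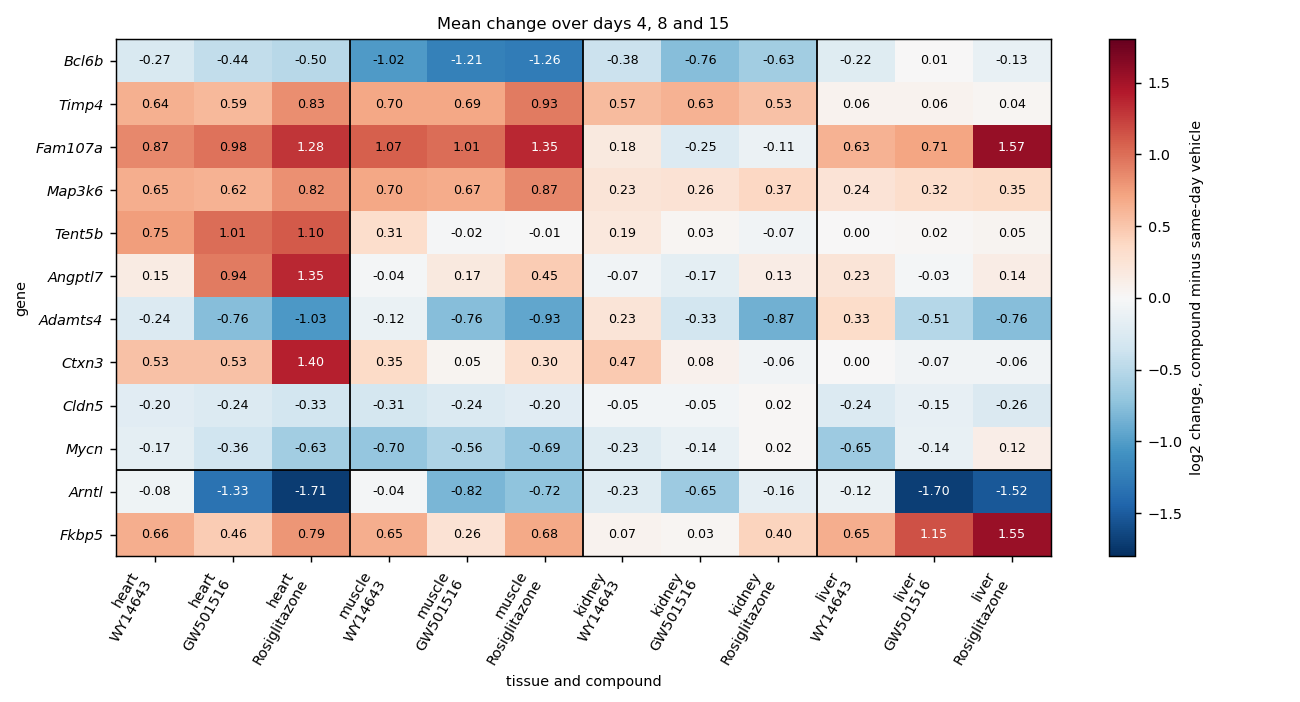
Mean log2 change over days 4, 8 and 15, treated minus vehicle, as a heat map with the value in each cell; rows are the 10 genes and, under the line, Arntl and Fkbp5, and columns are tissues and compounds, red for higher and blue for lower with treatment. Heart and muscle chose the genes; in kidney the rosiglitazone cells of Bcl6b (-0.63) and Adamts4 (-0.87) are blue, and in liver that of Fam107a (1.57) is red.

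Kidney and liver had no part in the choice and gave fewer calls. They came from the same animals, so their tests are not independent of that choice. In kidney, rosiglitazone lowered Bcl6b and Adamts4 and raised Map3k6, which made 3 of 10 called where 1.52% of all genes were. Bcl6b levels were 7.35, 7.70 and 8.26 in rosiglitazone kidneys and 7.89, 8.43 and 8.81 in vehicle kidneys, and 15 of 15 treated kidneys were below the vehicle mean of their day. The change was -0.63 ± 0.133 (limma, adjusted p = 0.00261). Adamts4 was at 3.22, 3.62 and 4.55 with rosiglitazone and at 3.56, 4.58 and 5.47 with vehicle, again with 15 of 15 below, and fell by 0.87 (SE 0.16, adjusted p = 0.000362). The second probe set of Adamts4 gave -0.48 there, and the gene is dim in kidney, under the 40th percentile of mean level. Map3k6 was at 5.26, 5.64 and 6.01 with rosiglitazone and at 4.74, 5.38 and 5.97 with vehicle, and rose by 0.37 ± 0.086 (adjusted p = 0.00746) with 13 of 15 above.

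GW501516 lowered Bcl6b and raised Timp4 in kidney, 2 of 10 where 6.79% of all genes were called. Bcl6b was at 4.55, 7.88 and 8.40 with GW501516 against the vehicle levels above, and changed by -0.76 ± 0.133 (limma, adjusted p = 5.49e-05), below vehicle in 14 of 15 kidneys. The lowest value, 4.55, belongs to the kidney labelled day 8 replicate 1, and without it the change was -0.54. Timp4 was at 2.20, 2.95 and 4.76 with GW501516 and at 1.78, 2.52 and 4.37 with vehicle, close to the bottom of the scale. Its rise of 0.63 ± 0.199 (adjusted p = 0.0393) ended when any of 13 arrays was left out, and the second probe set gave 0.18. With WY14643 no member was called in kidney by limma, where 1.74% of all genes were called. At an unadjusted p under 0.05 there were 5 members, and the share of all genes at that threshold was not computed. Bcl6b was the one with all 15 WY14643 kidneys below the vehicle mean of their day, at 7.62, 8.06 and 8.30 (-0.38, adjusted p = 0.162).

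In liver, rosiglitazone changed 4 of 10 where 16.2% of all genes were called. The count was 0 without day 8, 2 with the Arntl level as a covariate and 1 with that of Fkbp5, where the change of Fam107a turned to -1.06 (limma, adjusted p = 0.256). The share of all genes called under those settings was not computed. Arntl and Fkbp5 themselves differed from vehicle in these livers (-1.52 and 1.55), so covariate and treatment overlap. Fam107a was at 3.97, 5.46 and 9.54 in rosiglitazone livers and at 3.22, 4.18 and 7.11 in vehicle livers, and rose by 1.57 ± 0.392 (limma, adjusted p = 0.00244) with 13 of 15 above, while the other probe sets of Fam107a gave 0.97 and 0.51. Adamts4 was at 3.93, 4.74 and 5.39 with rosiglitazone and at 4.53, 5.51 and 7.28 with vehicle, and changed by -0.76 ± 0.204 (adjusted p = 0.00474) with 15 of 15 below, and the second probe set of Adamts4 gave -0.46. Map3k6 rose by 0.35 (adjusted p = 0.000701), at 6.03, 6.40 and 6.84 with rosiglitazone against 5.64, 6.13 and 6.35 with vehicle. Cldn5 fell by 0.26 (adjusted p = 0.00593), at 8.02, 8.33 and 8.73 with rosiglitazone against 8.10, 8.69 and 8.96 with vehicle.

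GW501516 raised Map3k6 in liver by 0.32 (limma, adjusted p = 0.00186), with levels of 5.89, 6.36 and 6.89 and 14 of 15 above the vehicle mean; it was 1 of 10 called where 13.9% of all genes were. The call was lost without day 8 (0.29, adjusted p = 0.0897), with the Arntl level as a covariate (0.31, adjusted p = 0.0717) and with that of Fkbp5 (0.03, adjusted p = 0.94). Arntl and Fkbp5 themselves differed from vehicle in GW501516 livers by -1.7 and 1.15, so covariate and treatment overlap. WY14643 gave 3 of 10 where 11.2% of all genes were called: Map3k6 at 0.24 ± 0.078 (adjusted p = 0.0304), Cldn5 at -0.24 ± 0.071 (adjusted p = 0.0142) and Mycn at -0.65 ± 0.196 (adjusted p = 0.0181). None of those 3 calls held without the liver labelled day 4 replicate 2, where the changes were 0.16 for Map3k6 (adjusted p = 0.132), -0.19 for Cldn5 (0.0621) and -0.57 for Mycn (0.0516). The other probe sets of Mycn gave -0.11 and 0.00 in WY14643 livers, the first of them brighter in liver than the probe set used (mean 7.9 against 7.75). In WY14643 livers 4 of 8 neutrophil markers were called higher, and their part in these changes was not tested. The share called with GW501516 lay at the background of all genes, and 2 of the 4 rosiglitazone calls, Fam107a and Adamts4, are of genes under the 40th percentile of mean level in liver.

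Vehicle animals of different days differed in level among themselves. The vehicle hearts and muscles of each day entered the differences that chose the genes, so the heart and muscle values below are descriptions and their counts no test. Between day 8 and day 4 the vehicle hearts had 4 of 10 members past the threshold, where 0.786% of all genes were called. Adamts4 was at 7.39, 7.81 and 8.80 on day 8 and at 5.90, 6.51 and 8.08 on day 4 (a difference of 1.26 ± 0.253). Cldn5 was at 9.89, 10.17 and 10.49 on day 8 and at 9.58, 9.75 and 10.00 on day 4 (0.42 ± 0.093).

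Timp4 and Ctxn3 differed the other way between those vehicle days. Timp4 was at 10.63, 11.06 and 11.64 on day 8 and at 11.03, 11.74 and 12.25 on day 4 (-0.60 ± 0.137). Ctxn3 was at 5.32, 5.76 and 6.34 on day 8 and at 5.74, 6.65 and 7.83 on day 4 (-0.86 ± 0.215, lost when any of 9 arrays was left out). In each of the 4 genes the vehicle change to day 8 had the opposite sign to the mean change with the compounds, and both use the vehicle hearts of day 8. In vehicle muscles Adamts4 was past the threshold, 1 of 10 where 0.187% of all genes were called (1.29 ± 0.289, lost when any of 6 arrays was left out). By limma no other member of the 10 passed between vehicle days in muscle, kidney or liver, except Mycn in liver on day 15 against day 4 (0.99 ± 0.278, adjusted p = 0.0286, lost when any of 8 arrays was left out), where 4.06% of all genes were called. Between day 8 and day 4, 9.73% of genes were called in liver and 0.473% in kidney; between day 15 and day 4 it was 0.39% in heart, 0.0055% in muscle and 0.874% in kidney. No heart member passed between day 15 and day 4 by limma. At an unadjusted p under 0.05 there were 4, and the share of all genes at that threshold was not computed.

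Arntl (BMAL1), a core transcription factor of the circadian clock, was 1.8 ± 0.219 higher on day 8 than on day 4 in vehicle hearts and 1.34 higher in vehicle muscles. Against vehicle of the same day, Arntl differed by -0.08, -1.33 and -1.71 in heart with WY14643, GW501516 and rosiglitazone (SE 0.155) and by -0.04, -0.82 and -0.72 in muscle (SE 0.171). The WY14643 averages again hide opposite days, 1.43 on day 4 and -1.69 on day 8 in heart. The labels give no hour of collection, so a shift of the clock and a shift of the hour cannot be told apart. Response at day 15 minus response at day 4 was called for no member in heart or muscle by limma. At an unadjusted p under 0.05 there were 1, 4 and 1 of 10 in heart with WY14643, GW501516 and rosiglitazone, and 2, 1 and 1 in muscle. After adjustment, 0.275%, 0.0165% and 0% of all genes were called in heart and 0%, 0% and 0.0055% in muscle. The share of all genes at an unadjusted p under 0.05 was not computed, so nothing is read from the unadjusted counts.

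Adamts4 varied with Arntl among vehicle hearts. Within days, its level rose by 0.74 ± 0.127 for each log2 unit of Arntl over 30 vehicle hearts (limma, adjusted p = 0.00288), the 1 member called where 0.258% of all genes were. The deviations from day means had Pearson's r = 0.73 (permutation p = 2e-05) and Spearman's rho = 0.85 (permutation p = 1e-05, the smallest that 100000 permutations give). The correlation within days 4, 8 and 15 was 0.53, 0.94 and 0.81, and it was 0.65 without the 2 hearts farthest from the median of Arntl. Leaving out each heart kept the slope between 0.60 and 0.82. The call was lost with the replicate block (0.61, limma, adjusted p = 0.295) and with the mean over probe sets (0.83, adjusted p = 0.154).

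Of the other members, 5 had a slope on Arntl at an unadjusted p under 0.05 in vehicle hearts and none of these passed adjustment: Timp4 (-0.22), Map3k6 (-0.24), Angptl7 (-0.43), Ctxn3 (-0.33) and Cldn5 (0.16). In vehicle muscle no member was called by limma, and 2 had an unadjusted p under 0.05, Adamts4 (0.62 ± 0.213, adjusted p = 0.403) and Cldn5 (0.46 ± 0.154, adjusted p = 0.384), where 0.022% of all genes were called. Vehicle kidneys and livers gave no call of a member on Arntl by limma, where 0.011% and 0.511% of all genes were called. There 2 and 0 members had an unadjusted p under 0.05. For no tissue was the share of all genes at an unadjusted p under 0.05 computed. Among the 45 treated hearts the slope of Adamts4 on Arntl was 0.37 within groups (limma, adjusted p = 0.815, 0.011% of all genes called). The vehicle slope times the change of Arntl came to -0.06, -0.98 and -1.27 for Adamts4 in hearts of WY14643, GW501516 and rosiglitazone, beside measured changes of -0.24, -0.76 and -1.03. For Timp4 in the same hearts the product was 0.02, 0.29 and 0.38, beside 0.64, 0.59 and 0.83. In the other tissues the rosiglitazone product of Adamts4 was -0.45 in muscle, 0.02 in kidney and -0.14 in liver, beside -0.93, -0.87 and -0.76. With the Arntl level as a covariate 5, 0 and 2 of 10 members were called in heart, against 5, 9 and 10 without it. The share of all genes called with the covariate was not computed. Arntl itself differed from vehicle by -1.33 and -1.71 with GW501516 and rosiglitazone, so covariate and treatment overlap there. Whether Arntl stands for a cause was not tested.

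**Figure D4:**
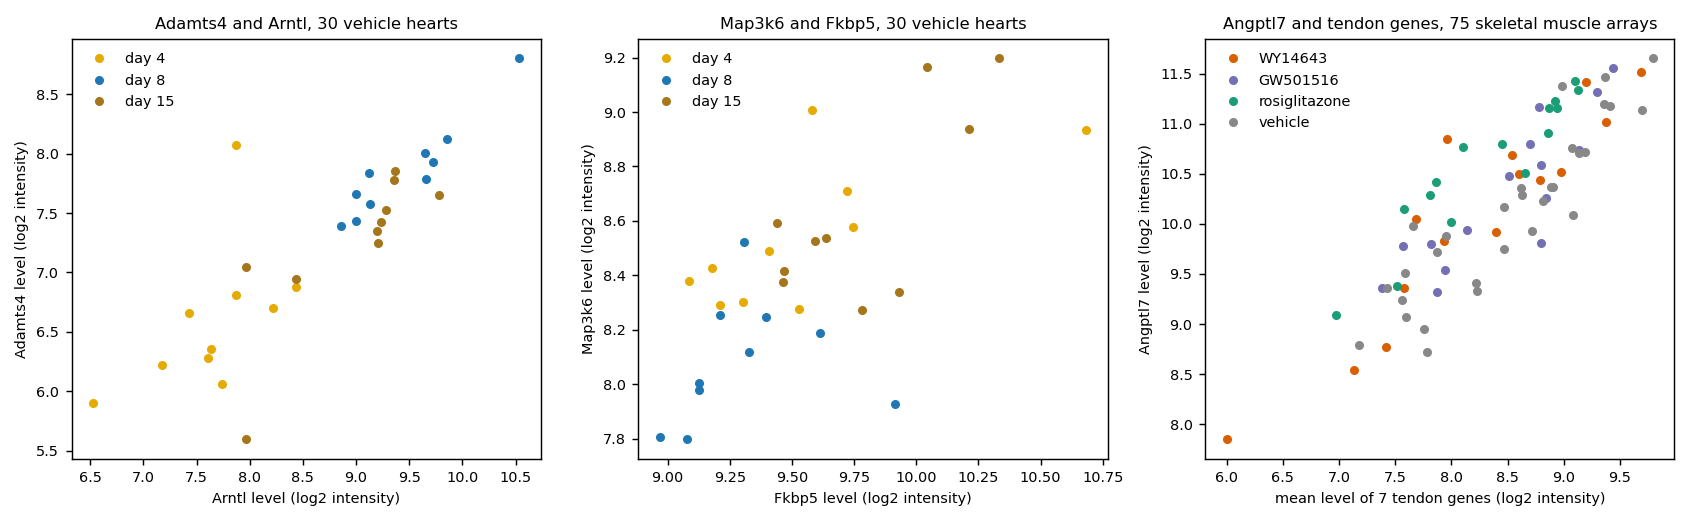
Log2 level of Adamts4 against Arntl and of Map3k6 against Fkbp5 in 30 vehicle hearts, coloured by day, and of Angptl7 against the mean of 7 tendon markers in 75 muscles, coloured by compound; points are arrays. After day or group means are taken out, the correlations are 0.73, 0.59 and 0.92.

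Fkbp5 is a co-chaperone of steroid receptors that glucocorticoids induce. It was taken up because it was among the genes nearest to Map3k6 and Tent5b in these same hearts, so the heart slopes on it are descriptions and their counts no test; the other tissues come from the same animals. Fkbp5 itself differed from vehicle by 0.66, 0.46 and 0.79 in heart with WY14643, GW501516 and rosiglitazone (SE 0.138) and by 0.65, 0.26 and 0.68 in muscle (SE 0.164). Over 30 vehicle hearts no member's slope on Fkbp5 was called by limma, where 0.0055% of all genes were called. At an unadjusted p under 0.05 there were 7 of 10 members, and the share of all genes at that threshold was not computed. The slope was 0.94 ± 0.205 for Fam107a (r = 0.65) and 0.46 ± 0.119 for Map3k6 (r = 0.59). Vehicle muscles, kidneys and livers gave no call on Fkbp5 by limma either, where 3.02%, 0.033% and 0% of all genes were called. There 2, 3 and 2 of 10 members had an unadjusted p under 0.05, again without a share of all genes at that threshold.

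Among the 45 treated hearts 6 of 10 members were called on Fkbp5, where 6.85% of all genes were. Without the animal labelled WY14643 day 4 replicate 2, 2 of 10 were called where 0.291% of all genes were. These were Map3k6 with a slope of 0.82 ± 0.073 (0.94 ± 0.064 with the animal) and Fam107a with 0.84 ± 0.149 (0.93 ± 0.121 with it). Timp4, Tent5b, Bcl6b and Mycn were called with the animal, at 0.35, 0.66, -0.29 and -0.82, and not without it, at slopes of 0.39, 0.62, -0.25 and -0.60. In muscle Map3k6 was called by limma with the animal (0.62 ± 0.127, adjusted p = 0.00799, 1.51% of all genes) and no member without it (0.011% of all genes). Without the animal 3 of 10 had an unadjusted p under 0.05 in muscle, and the share of all genes at that threshold was not computed. Liver gave Fam107a with and without it, at 1.91 ± 0.277 over 45 livers and 2.28 ± 0.3 over 44 (adjusted p = 0.000138 and 7.2e-05; 1.24% and 0.242% of all genes). Map3k6 was called in liver with the animal (0.37, limma, adjusted p = 0.0024) and not without it (0.26, adjusted p = 0.129). In kidney 2 of 10 were called with it, Map3k6 and Tent5b, where 29.6% of all genes were, and 2 of 10 without it, Bcl6b and Tent5b, where 44.6% were.

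That animal carried extreme values of several members. In its heart Map3k6 was at 11.16, against 8.72 to 9.28 in the other 4 WY14643 hearts of day 4, Fkbp5 at 12.23 against 10.09 to 10.49, and Mycn at 7.29 against 9.46 to 10.01. In its muscle Map3k6 was at 9.74 against 6.27 to 7.0, Adamts4 at 7.28 against 4.28 to 4.63, and Ctxn3 at 11.57 against 8.70 to 9.75. Without it the WY14643 changes in muscle were 0.49 for Map3k6, -0.30 for Adamts4 and 0.21 for Ctxn3. Without its arrays the WY14643 counts were 4 of 10 in heart and 4 of 10 in muscle, and the share of all genes called there was not computed.

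Some members varied from animal to animal in step across the tissues. Over 75 animals, deviations from group means in heart and muscle had r = 0.82 for Map3k6, more than for 99.6% of all genes, and r = 0.75 for Fam107a, more than for 99.1%; both had a permutation p of 1e-05, the smallest that 100000 permutations give. Without the animal labelled WY14643 day 4 replicate 2 these were 0.70 and 0.71 over 74 animals, and among the 30 vehicle animals 0.55 and 0.70. Fkbp5 had r = 0.85, and the median over all genes was 0.08 with quartiles of -0.03 and 0.21.

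Adamts4 (r = 0.51, permutation p = 0.0002) and Timp4 (r = 0.49, permutation p = 3e-05) lay above 96.2% and 95.7% of genes, and Adamts4 dropped to 0.38 without that animal. Bcl6b, Mycn, Ctxn3 and Cldn5 had r between 0.30 and 0.37, with permutation p of 0.00956, 0.00895, 0.0151 and 0.0449. Tent5b (r = 0.19, permutation p = 0.168) and Angptl7 (r = -0.15, permutation p = 0.257) did not pass. The 10 p-values are unadjusted.

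**Figure D5:**
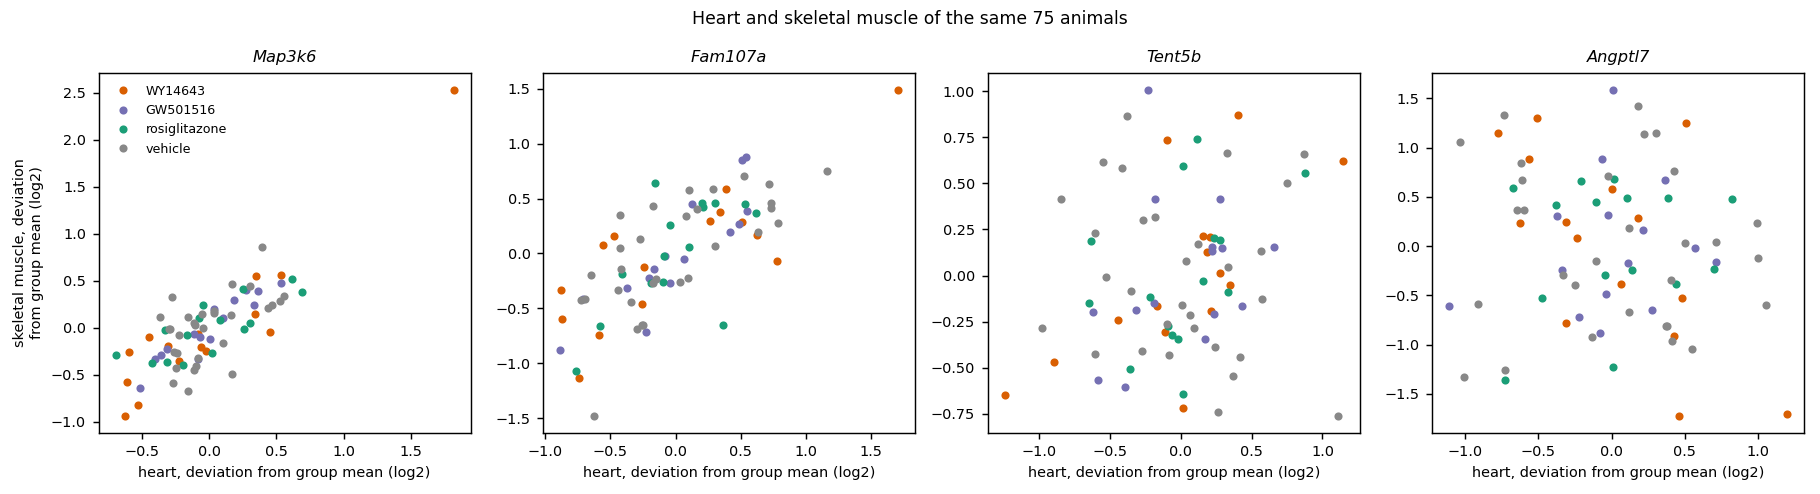
Deviation of each of 75 animals from its group mean in muscle against heart, both log2, for Map3k6, Fam107a, Tent5b and Angptl7. Map3k6 (r = 0.82) and Fam107a (r = 0.75) run along the diagonal and Angptl7 (r = -0.15) does not; the point farthest out for Map3k6 is the animal labelled WY14643 day 4 replicate 2.

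Within heart, 10 of 45 pairs of members had a correlation over 0.4 and 4 under -0.4 across single arrays, 8 and 2 without that animal. Fam107a with Map3k6 (0.79), Bcl6b with Mycn (0.75), Timp4 with Fam107a (0.68) and Timp4 with Ctxn3 (0.62) were the closest pairs, and Map3k6 with Mycn (-0.64) the most opposed. In muscle 4 of 45 pairs were over 0.4 and 0 under -0.4, among them Fam107a with Map3k6 (0.64) and Adamts4 with Cldn5 (0.62). Kidney had 1 pair on each side and liver 0. These are descriptions over the 75 arrays of a tissue, as deviations from the means of their 12 groups.

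Each member's nearest genes outside the list were ranked by the correlation of deviations over the same 75 arrays. Mycn in heart was nearest to Aplnr (0.87) and Apln (0.84), the receptor and ligand of the apelin pathway, and Bcl6b to Rasgrp3 (0.75) and Ets1 (0.74). Map3k6 was nearest to Sult1a1 and Fkbp5 in heart (0.84 each) and to Foxo1 (0.80) and Slc10a6 (0.78) in muscle. Fam107a was nearest to Fam117b (0.79) and Adgrg1 (0.77) in heart and to Arrdc2 (0.67) and Fgfr3 (0.65) in muscle, and Tent5b in heart to Atoh8 (0.64) and Fkbp5 (0.56). Adamts4 in heart was nearest to Mmp14 (0.58) and Lox (0.56), both of matrix remodelling, and in muscle to Litaf (0.73) and Csf2rb (0.70). Without the animal labelled WY14643 day 4 replicate 2, the 2 heart values were 0.47 and 0.46 for Adamts4 and 0.75 and 0.78 for Map3k6. They were 0.80 and 0.78 for Mycn and 0.58 and 0.48 for Tent5b. Timp4 was nearest to Bcl2l1 (0.69) and Fam117b (0.66) in heart and to Mcee (0.65) and Fitm2 (0.62) in muscle.

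Angptl7 in muscle was nearest to the tendon transcription factor Mkx (0.93) and to the tendon matrix gene Fmod (0.91), and in heart to 9330159F19Rik (0.62) and Kcnma1 (0.59). Cldn5 was nearest to Als2cl (0.75) and Spata13 (0.73) in muscle and to Bambi-ps1 (0.55) and Plpp1 (0.52) in heart. Ctxn3 was nearest to Ccdc192 (0.74) and Gramd3 (0.56) in muscle and to Scn3a (0.65) and Herpud1 (0.61) in heart. In muscle Bcl6b was nearest to Apold1 and Gimap4 (0.63 each), Mycn to Nav2 (0.59) and Tmem8b (0.54), and Tent5b to Lyve1 (0.57) and Cyba (0.56).

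Markers of vascular and stromal cells moved with some of the 10 genes and not with others. In muscle, Cldn5 (r = 0.63), Bcl6b (0.53) and Adamts4 (0.50) moved with the mean of 22 endothelial genes across single arrays, and in heart Bcl6b did so at 0.33 and Cldn5 at 0.22. Angptl7 in muscle moved with the mean of 7 tendon markers at 0.92 and against the mean of 8 measured of 10 adipocyte markers at -0.70. The tendon mean was 6.0 to 9.69, 7.38 to 9.43 and 6.97 to 9.13 in muscles of WY14643, GW501516 and rosiglitazone, against 7.17 to 9.79 in vehicle muscles. Timp4 (-0.54) and Ctxn3 (-0.59) moved against the mean of 11 of 11 fibroblast markers in heart. That mean was 11.89 to 12.48, 12.01 to 12.54 and 11.83 to 13.03 in treated hearts, against 11.92 to 12.35 in vehicle hearts. In rosiglitazone hearts 3 of the 11 were called lower, as were 3 of 5 measured of 8 erythroid markers, and with the other compounds none of either list was called. In WY14643 hearts 3 of 8 measured of 9 neutrophil markers and 2 of 9 monocyte and macrophage markers were called higher, with list means of 6.0 to 9.47 and 10.01 to 11.12, against 5.71 to 6.76 and 9.97 to 10.85 in vehicle hearts. Of 8 measured of 10 adipocyte markers, 2 were called higher in heart with GW501516 and 2 with rosiglitazone, at list means of 8.02 to 11.80 and 7.72 to 12.5, against 7.84 to 9.66 with vehicle. The endothelial mean was 7.66 to 8.14, 7.57 to 8.09 and 7.47 to 8.25 in treated muscles, against 7.42 to 8.20 in vehicle muscles; the part of cell composition in the changes was not tested.

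Relatives of the members mostly did not pass in heart or muscle. Of 19 measured of 21 TIMP, ADAMTS and MMP genes, none was called in heart with WY14643, 2 with GW501516 (Timp3 at 0.37, Adamts1 at -0.32) and 5 with rosiglitazone, among them Timp3 (0.42), Adamts12 (-0.49), Mmp14 (-0.37) and Adamts1 (-0.36). In muscle, rosiglitazone called Mmp9 (-0.82) and Adamts1 (-0.40) and the other compounds none of the 19. Of 18 measured of 19 claudins and junction genes, Cldn15 rose in rosiglitazone hearts (0.38) and none passed elsewhere in heart or muscle. Of 6 measured of 8 other angiopoietins and angiopoietin-like genes, Angptl4, an inhibitor of lipoprotein lipase, rose in heart with GW501516 (1.90) and rosiglitazone (0.86) and none passed in muscle.

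Zbtb16, a BTB zinc finger factor and 1 of 6 genes related to Bcl6b, rose with each compound in heart (0.66, 0.86 and 1.04) and in muscle (0.38, 0.49 and 0.63), and Zbtb7b fell in rosiglitazone hearts (-0.14). Of 13 measured of 15 MAP3K genes, none was called with WY14643, Map3k11 (-0.12) with GW501516, and Map3k4 (-0.20) and Map3k11 (-0.13) with rosiglitazone in heart, and none in muscle. Of 12 MYC network genes, Mxd4 (0.19) and Mxd1 (0.15) rose in rosiglitazone hearts and none passed in the other heart and muscle comparisons. Of 22 endothelial genes, 4 rose in heart with GW501516 (Sox17 at 0.41, Clec14a at 0.32, Eng at 0.23 and Flt1 at 0.22), 5 with rosiglitazone and none with WY14643, and in muscle Sox18 alone rose with rosiglitazone (0.40). Neither of 2 measured of 3 other TENT5 genes passed in heart or muscle. Of 18 measured of 19 core clock genes, 0, 8 and 8 rose and 0, 2 and 4 fell in heart with WY14643, GW501516 and rosiglitazone, and of 14 genes that glucocorticoids induce, 2, 5 and 6 rose and 0, 2 and 1 fell. In muscle 0, 2 and 1 of the clock genes rose and 0, 3 and 3 fell, and 0, 0 and 1 of the glucocorticoid genes rose and 0, 1 and 0 fell. The shares of all genes called were 1.44%, 4.17% and 7.51% in heart and 0.104%, 0.857% and 1.65% in muscle.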

How the data were processed

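Gene expression was measured on Affymetrix mouse genome arrays in 4 tissues of each animal. The deposited values are log2 intensities that the authors made with RMA in Partek, per the submitters' processing notes, with versions not given in the sources used here. Per the labels' protocols, RNA was extracted with a Qiagen miRNeasy kit and amplified with NuGEN kits.

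Of 45101 probe sets, 34945 carry 1 gene, 932 several and 9160 none, and 64 are controls. Of these, 34741 were named through the gene ID, giving 18193 genes, each taken at its probe set with the highest mean. For each tissue a limma 3.58.1 model (R 4.3.3, intensity trend) held 12 groups with 63 residual degrees of freedom. The mean of the 3 same-day differences was tested, with p adjusted by Benjamini-Hochberg over all genes and called under 0.05. Slopes on Arntl and Fkbp5 used day or group as a factor. Correlations used deviations from group means and 100000 permutations, two-sided. The model was also run on simulated data with independent normal noise for each gene and no outlying animal. The outcome of that run is not given and is no support for the results here.

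The members and lists were chosen with earlier results of these data known. Named beyond the members are Arntl, Fkbp5, the 2 nearest genes of each member in heart and muscle, and up to 4 called genes of a list with the largest changes, plus called genes of opposite sign. Tissues of 1 animal were matched by the mouse number in the labels; replicate numbers mark different animals within a tissue, and some mice have another replicate number in liver than in the other tissues, so they were no block in the main model. Nothing says how animals were housed or run, and no scan date or array batch is used here. Alternatives were array weights, no intensity trend, dim genes left out, centring, the mean over probe sets, the replicate block, Arntl as a covariate, no day 8 and leave-one-out; Fkbp5 as a covariate and the models without 1 animal were chosen after seeing the data.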

Additional observations from a re-analysis of the deposited data

Results flagged for a closer look

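Within groups of 5 treated or 10 vehicle arrays, 47 of 480 groups of a member in a tissue had a highest or lowest array far from the others by Dixon's rule. Chance flags about 1 in 20 groups. There were 12 such groups in heart, 8 in muscle, 13 in kidney and 14 in liver. In each case below the value is followed by that of the next array of the same group. No explanation was tested.

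The animal labelled WY14643 day 4 replicate 2 accounts for several. Map3k6 was highest there in heart (11.16, next 9.28), muscle (9.74, next 7.0), kidney (6.69, next 5.53) and liver (7.11, next 6.01). Adamts4 was highest in its muscle (7.28, next 4.63) and kidney (7.62, next 5.24), and Mycn was lowest in its heart (7.29, next 9.46). The kidney of GW501516 day 8 replicate 1 was lowest for Bcl6b (4.55, next 7.70), Tent5b (4.00, next 5.5) and Cldn5 (6.27, next 6.51).

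Among the other hearts, Bcl6b was highest in GW501516 day 4 replicate 5 (12.12, next 11.94) and lowest in rosiglitazone day 15 replicate 4 (11.32, next 11.92). Tent5b was lowest in WY14643 day 8 replicate 5 (7.16, next 8.61), and Angptl7 was highest in GW501516 day 4 replicate 4 (10.70, next 10.46). Mycn was lowest in GW501516 day 8 replicate 2 (8.66, next 9.49) and rosiglitazone day 4 replicate 1 (8.23, next 9.26). Adamts4 was highest in rosiglitazone day 8 replicate 2 (7.17, next 5.98), vehicle day 4 replicate 2 (8.08, next 6.88) and vehicle day 8 replicate 7 (8.80, next 8.12), and lowest in vehicle day 15 replicate 8 (5.6, next 6.95).

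Among the other muscles, vehicle day 4 replicate 1 was lowest for Timp4 (8.43, next 9.48) and Fam107a (4.94, next 6.09). Map3k6 was highest in WY14643 day 15 replicate 2 (7.50, next 6.89), Angptl7 in GW501516 day 15 replicate 2 (11.56, next 9.81) and Adamts4 in GW501516 day 8 replicate 2 (4.92, next 3.94). Ctxn3 was lowest in WY14643 day 8 replicate 1 (8.31, next 9.04).

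In the other kidneys, Timp4 was highest in GW501516 day 15 replicate 2 (4.67, next 2.95) and rosiglitazone day 4 replicate 4 (3.69, next 2.87). Fam107a was lowest in vehicle day 8 replicate 1 (9.87, next 10.31), Map3k6 highest in WY14643 day 8 replicate 4 (5.62, next 5.39) and Mycn lowest in GW501516 day 4 replicate 5 (5.83, next 6.07). Cldn5 was highest in WY14643 day 15 replicate 3 (6.84, next 6.62) and lowest in GW501516 day 15 replicate 1 (6.08, next 6.56) and vehicle day 15 replicate 1 (6.37, next 6.57).

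In the other livers, Bcl6b was highest in WY14643 day 4 replicate 5 (9.35, next 8.40) and rosiglitazone day 4 replicate 1 (8.93, next 8.62), and Timp4 in GW501516 day 15 replicate 2 (3.41, next 3.0). Fam107a was lowest in WY14643 day 15 replicate 1 (2.71, next 4.91) and highest in GW501516 day 4 replicate 3 (5.66, next 3.98) and vehicle day 8 replicate 7 (6.80, next 4.50). Angptl7 was highest in WY14643 day 4 replicate 4 (7.64, next 6.92) and WY14643 day 8 replicate 3 (8.52, next 7.06), and Adamts4 in vehicle day 15 replicate 10 (7.28, next 5.98). Ctxn3 was lowest in WY14643 day 15 replicate 3 (3.49, next 3.81), Cldn5 in GW501516 day 8 replicate 2 (8.24, next 8.58) and Map3k6 in vehicle day 15 replicate 2 (5.86, next 6.10), and Mycn was highest in vehicle day 4 replicate 7 (8.66, next 7.70).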

How the results depend on the processing

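The number of members called changed in the most comparisons when day 8 was left out. For comparisons of compounds or days, the share of all genes called under the settings below was not computed. The counts therefore do not show whether the members differ from other genes there. Without day 8 the counts with WY14643, GW501516 and rosiglitazone were 2, 2 and 5 in heart (5, 9 and 10 with it), 0, 1 and 1 in muscle (5, 6 and 6), 2 and 1 in kidney with WY14643 and GW501516 (0 and 2), and 1, 0 and 0 in liver (3, 1 and 4); the cause was not tested, and fewer arrays were used. With Arntl as a covariate the counts were 0 and 2 in heart with GW501516 and rosiglitazone, 0 and 2 in liver with GW501516 and rosiglitazone, and 0 for day 8 minus day 4 in vehicle hearts (4) and muscles (1). With Fkbp5 as a covariate they were 0 in heart and 2 in muscle with WY14643, and 1 and 1 in liver with WY14643 and rosiglitazone; there the rosiglitazone changes of Fam107a and Map3k6 in liver turned to -1.06 (limma, adjusted p = 0.256) and -0.06 (adjusted p = 0.878). Arntl and Fkbp5 themselves differed from vehicle with the compounds concerned, so covariate and treatment overlap, and the cause was not tested.

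Array weights gave 1 for the WY14643 response of heart (0), 2 for muscle vehicle day 8 minus day 4 (1), 1 for kidney with WY14643 (0) and 2 for liver with GW501516 (1). Centring gave 2 for muscle vehicle day 8 minus day 4, dim genes left out gave 2 for liver with rosiglitazone, and the mean over probe sets gave 1 for kidney with GW501516 and 0 for Arntl in heart (1). Without a day term, Arntl called 4 in heart and 2 in muscle (0), and Fkbp5 called 3 in heart (0) and 1 in muscle (0). In the 45 treated arrays Arntl called 0 in heart, and Fkbp5 called 6 in heart, 1 in muscle, 2 in kidney and 2 in liver, against 0 in each over vehicle arrays; without the animal labelled WY14643 day 4 replicate 2, Arntl called 0 in heart, and Fkbp5 called 2 in heart, 2 in kidney and 1 in liver. Leaving out that animal's liver gave 0 with WY14643 (3).

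Leaving out each array in turn gave 0 to 1 for the WY14643 response of heart, 0 to 2 for muscle vehicle day 8 minus day 4, 0 to 1 in kidney with WY14643, 1 to 4 in kidney with GW501516, 0 to 4 in liver with WY14643, 1 to 2 in liver with GW501516, and 0 to 1 for liver vehicle day 15 minus day 4. The replicate block gave 1 for the WY14643 response of heart (0), 0 for Arntl in heart (1) and 1 in liver with WY14643 (3), and changed none of the other 31 counts by over 1.5 times. Same-numbered arrays of different groups had a median correlation of 0.0 in heart, 0.05 in muscle, 0.0 in kidney and 0.0 in liver. In these tissues 16, 17, 16 and 11 of 75 arrays correlated best with their own number. The count that unrelated numbers would give was not computed, so an effect shared by arrays of 1 number was not tested. Dim genes are limited by signal over background: Adamts4 was under the 40th percentile of mean level in all 4 tissues.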
